A study of Homo sapiens with 32 samples.

Results

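The COP9 signalosome was examined in a pooled CRISPR-knockout screen for genes that change protein kinase A (PKA) activity in RKO cells, an established human colorectal cancer line. Its members were taken as the 9 genes that encode its long-known subunits, GPS1, COPS2, COPS3, COPS4, COPS5, COPS6, COPS7A, COPS7B and COPS8, found in the sgRNA count table through their Ensembl gene identifiers. All 9 were present, each with 4 sgRNAs, which gave 36 sgRNAs of 74987 in the table and 9 of 18638 genes. The RKO cells in all populations carried KinprolaPKA, a HaloTag-based recorder that becomes labelled by a fluorescent chloroalkane dye (CPY-CA) while PKA is active, together with Cas9 and the genome-wide sgRNA library (Heidelberg library, sub-library A), all brought in by lentivirus. After 6 days the cells were labelled for 30 min and sorted by dye signal relative to the EGFP of the recorder into low (lowest 25%), medium (labelled basal, about 50%) and high (highest 25%) populations, and unsorted day 0 cells (T0) served as the starting point. Each of these 4 populations was sequenced in 2 independent screens, labelled replicates 2 and 3, so that there were 8 libraries. The cells were a transduced pool and not clones, and an sgRNA read stands for a cell that carried that sgRNA, whatever edit it had received.

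The COP9 signalosome removes the ubiquitin-like protein NEDD8 from cullins, the scaffolds of cullin-RING ubiquitin ligases. Neddylation switches these ligases on, and its removal lets the exchange factor CAND1 reach the cullin and replace one substrate receptor with another, so that the signalosome both restrains and sustains ligase turnover. COPS5 (also called CSN5 or JAB1) is the metalloprotease that cuts NEDD8 off, COPS6 is its catalytically silent MPN-domain partner, and the remaining subunits are PCI-domain proteins that form the scaffold, in which COPS7A and COPS7B are paralogues that take the same place. The lid of the 26S proteasome and the translation initiation factor eIF3 also contain subunits with these 2 kinds of domain.

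On GRCh38 (GENCODE release 44), GPS1 lies on chromosome 17 from 82050691 to 82057470, COPS2 on chromosome 15 from 49106068 to 49155661, COPS3 on chromosome 17 from 17246616 to 17281273 and COPS4 on chromosome 4 from 83034447 to 83075818. COPS5 lies on chromosome 8 from 67043079 to 67083783, COPS6 on chromosome 7 from 100088969 to 100092187, COPS7A on chromosome 12 from 6724014 to 6731875, COPS7B on chromosome 2 from 231781671 to 231809254 and COPS8 on chromosome 2 from 237085882 to 237100474. The count table names each sgRNA by its gene and a number, so the exon that a given sgRNA cuts is not analysed here.

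The libraries held between 23369720 and 31777138 sgRNA reads, with a median of 260.0 to 356.0 reads per sgRNA. Levels below are scaled reads, that is reads multiplied by the mean library total over the library's own total, and a gene's level is the sum over its 4 sgRNAs. For scale, sgRNAs against PRKACA, which encodes a catalytic subunit of PKA, were lower in high than in low by a log2 fold change of -1.60 ± 0.11 (SE, 2 screens, limma adjusted p = 1.47e-06). The 278 sgRNAs without a target averaged -0.11 (SD 0.31 over sgRNAs) in the same comparison.

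sgRNAs against the catalytic subunit COPS5 had 1336 and 1012 scaled reads in the low libraries of replicates 2 and 3, 496 and 445 in medium, 587 and 537 in high, and 2103 and 1958 at T0. Those against its MPN partner COPS6 had 541 and 544 in low, 321 and 267 in medium, 321 and 228 in high, and 638 and 743 at T0. For both MPN subunits the low libraries stood clear of all medium and high libraries, and the T0 libraries stood above every sorted library.

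Among the scaffold subunits, GPS1 (CSN1) had 1420.3 and 1097 scaled reads in low, 546 and 486 in medium, 601 and 497 in high, and 1246 and 1161 at T0. COPS2 had 1415 and 1438 in low, 679 and 629 in medium, 743 and 564 in high, and 1474 and 1489 at T0. COPS8 had 1619 and 1626 in low, 897 and 981 in medium, 913 and 888 in high, and 1478 and 1396 at T0. In these 3 genes the low libraries were close to the T0 level or above it, and the medium and high libraries lay together well below. COPS3 had 1089 and 807 in low, 583 and 514 in medium, 629 and 584 in high, and 1198 and 1436 at T0. COPS4 had 866 and 752 in low, 457 and 375 in medium, 469.8 and 339 in high, and 852 and 1156 at T0. For COPS3 and COPS4 the replicate 3 T0 library was the highest of all 8, and medium and high again lay close together.

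Levels of the paralogues varied less. COPS7A had 3205 and 3566 scaled reads in low, 2703 and 2770.1 in medium, 2574 and 2473 in high, and 2486 and 2799 at T0. COPS7B had 1056 and 1099 in low, 1101 and 1116 in medium, 1035 and 1109 in high, and 1119.9 and 949.6 at T0. The COPS7A low libraries were above all other COPS7A libraries by a small margin, and those of COPS7B fell among its other libraries. Over the complex, both low libraries exceeded all 4 medium and high libraries for 8 of 9 genes, all but COPS7B, which 12.5% of all genes did. Both T0 libraries exceeded the same 4 libraries for 7 of 9 genes, all but COPS7A and COPS7B, against 13.3% of all genes.

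**Figure D1:**
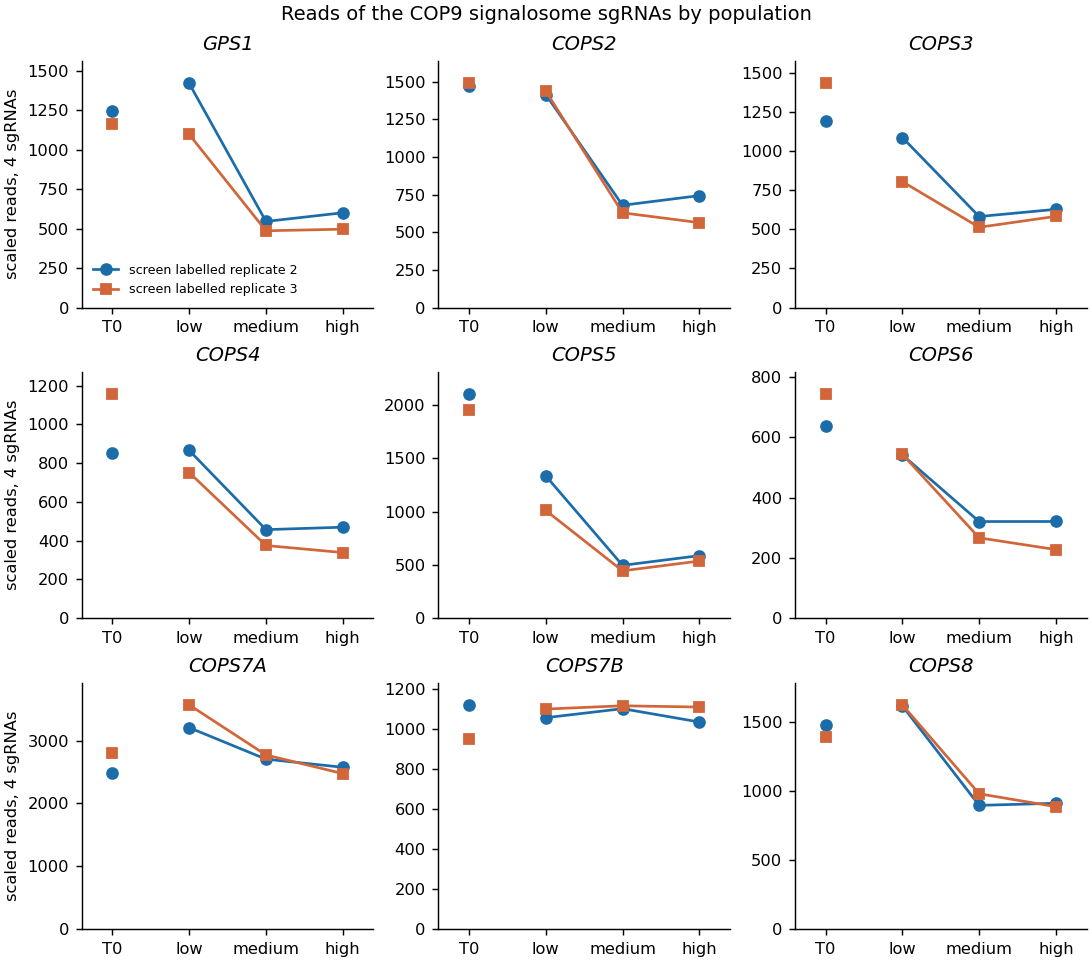
Scaled sgRNA reads (sum over 4 sgRNAs, linear axis from 0) of each COP9 signalosome gene in the T0, low, medium and high populations, with circles for the screen labelled replicate 2 and squares for replicate 3. In 8 of 9 panels both low points lie above all medium and high points, and the COPS7B panel is flat.

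The main comparison of the screen set the high against the low population, to find knockouts that shift PKA-dependent labelling. sgRNAs against 8 of the 9 subunits were lower in high than in low, and against none were they higher. Across all genes tested, 2.73% were called lower and 5.25% higher at a limma adjusted p under 0.05. The median log2 fold change of the 9 genes was -0.97, and that of all 18638 genes was -0.01. GPS1 had the largest change at -1.30 (95% interval -1.54 to -1.06), with -1.37 in replicate 2 and -1.23 in replicate 3, a limma adjusted p of 8.31e-06 and the rank of 62 from the lowest of all genes.

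COPS2 changed by -1.20 (-1.02 and -1.37 in replicates 2 and 3, limma adjusted p = 3.27e-05), COPS5 by -1.18 (-1.42 and -0.94, limma adjusted p = 6.68e-05) and COPS6 by -1.09 (-0.83 and -1.36, limma adjusted p = 0.000168). COPS8 changed by -0.97 with nearly the same value in both screens (-0.98 and -0.97, limma adjusted p = 7.51e-05). COPS4 changed by -0.78 (-0.86 and -0.70, limma adjusted p = 0.000568) and COPS3 by -0.57 (-0.70 and -0.45, limma adjusted p = 0.00713). The enzyme subunit COPS5 was thus placed among the scaffold subunits and not beyond them. COPS7A passed with a smaller change of -0.46 (-0.37 and -0.54, limma adjusted p = 0.0240), and COPS7B showed -0.03 (-0.06 and 0.00, limma adjusted p = 0.926), with a 95% interval of -0.27 to 0.21.

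The order of the subunits was only partly resolved. The 95% interval of GPS1 overlapped those of COPS2 (-1.46 to -0.93), COPS5 (-1.47 to -0.90), COPS6 (-1.39 to -0.80) and COPS8 (-1.21 to -0.74), and it did not overlap that of COPS4 (-1.02 to -0.54) or of any gene after it. The interval of COPS7B met that of COPS7A (-0.70 to -0.21) at its edge and no other. The COPS7A call was lost when values were centred on the sgRNAs without a target (-0.34, limma adjusted p = 0.102). With either low library left out, that population rested on a single screen, and COPS3, COPS4 and COPS7A lost their calls. Their values were -0.52, -0.79 and -0.51 without the low library of replicate 2. Without that of replicate 3 they were -0.63, -0.77 and -0.40. COPS3 (-0.44) and COPS7A (-0.52) also lost their calls without the high library of replicate 2, and COPS7A (-0.39) without that of replicate 3.

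**Figure D2:**
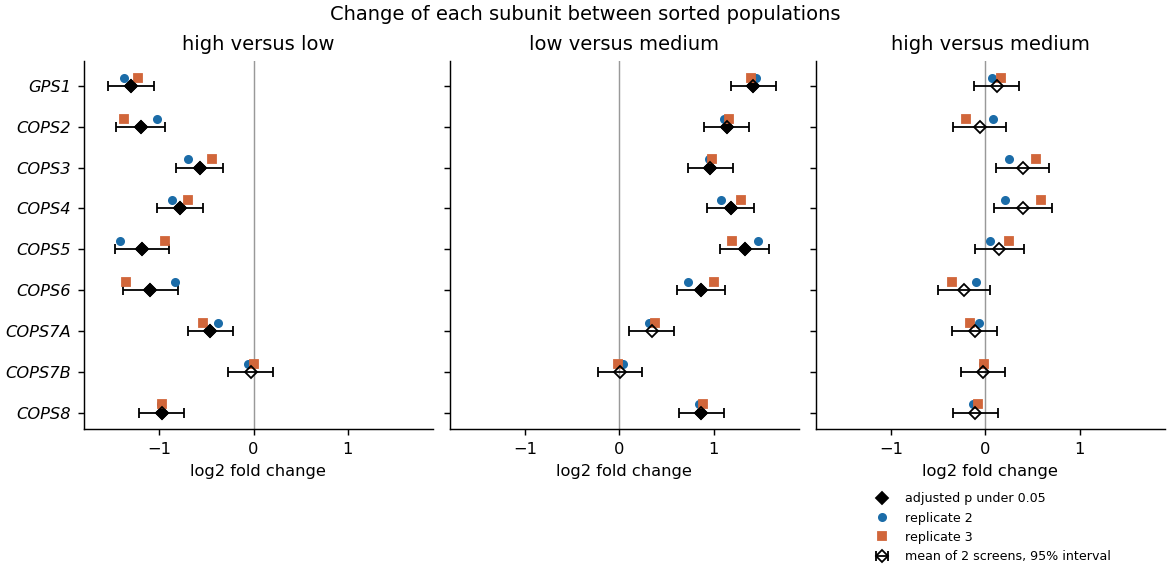
Log2 fold change of each COP9 signalosome gene in 3 comparisons between sorted populations, as the mean of 2 screens with its 95% interval (diamonds, filled where the limma adjusted p is under 0.05) and the value in each screen (circles and squares). The values run from -1.30 to -0.03 in high versus low, from 0.01 to 1.42 in low versus medium and from -0.23 to 0.40 in high versus medium.

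The single sgRNAs were tested on raw counts with edgeR. In high versus low 21 of the 36 sgRNAs were called lower and 0 higher, and 1.57% of all sgRNAs against genes were called lower and 2.94% higher. The log2 fold change was below 0 in both screens for 33 of the 36, which 29% of all sgRNAs against genes showed. The exceptions were COPS4 sgRNA 2 and a pair of COPS7B sgRNAs. All 4 sgRNAs were called for GPS1 and COPS2, 3 for COPS5, COPS7A and COPS8, 2 for COPS6, 1 each for COPS3 and COPS4, and none for COPS7B. The count fell to 10 without the low or the high library of replicate 2, to 12 without the low and to 13 without the high library of replicate 3.

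GPS1 sgRNA 2 changed most by the mean of its 2 screens. It had 217 and 135 scaled reads in the low libraries, 45.5 and 28.8 in medium and 52.3 and 40.3 in high, which gave an edgeR log2 fold change of -1.90 in high versus low (adjusted p = 9.74e-05). COPS2 sgRNA 1 had 201 and 225 in low against 67.1 and 61.6 in high (-1.71, edgeR adjusted p = 2.03e-05). Both stood well clear of their high libraries in each screen. COPS5 sgRNA 4 had 161 and 105 in low against 24.4 and 62.8 in high, so that its screens differed widely in size though not in direction (-1.65, edgeR adjusted p = 0.00561). COPS6 sgRNA 2 had 72.6 and 89.9 in low against 29.6 and 19.0 in high (-1.79, edgeR adjusted p = 0.0137). In replicate 2 its low reads were below its medium reads of 88.35, and its smallest count was 16 raw reads.

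The sgRNAs of COPS3 and COPS4 that were not called had fewer reads than those that were. COPS4 sgRNA 2 had 45.9 and 30.7 scaled reads in low, 17.3 and 35.2 in medium and 34.0 and 39.1 in high. COPS4 sgRNA 4 had 70.5 and 41.7 in low, 36.4 and 3.20 in medium and 25.3 and 27.3 in high, the smallest of these being 3 raw reads. The called sgRNAs were the deepest of each gene, COPS4 sgRNA 3 with 569 and 528 in low against 294 and 206 in high (-1.15, edgeR adjusted p = 1.32e-07), and COPS3 sgRNA 1 with 698 and 526 against 380.0 and 384 (-0.67, edgeR adjusted p = 0.00212). The 4 COPS7B sgRNAs had at least 112 raw reads in every library and mean changes between -0.12 and 0.12.

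COPS7A had the most reads of the complex. The mean changes of its 4 sgRNAs ran from -0.69 to -0.25, and all 4 were below 0 in both screens. COPS7A sgRNA 3 had 490.2 and 506 scaled reads in low against 278 and 344 in high (-0.69, edgeR adjusted p = 0.00608), and COPS7A sgRNA 2, the one not called, had 669.6 and 903 against 627 and 680.2 (-0.25, edgeR adjusted p = 0.418). Leaving out any 1 sgRNA kept the gene's value between -0.52 and -0.38. For GPS1 the same removal gave -1.45 to -1.11, for COPS5 -1.38 to -1.01, and for COPS4 -1.02 to -0.65.

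**Figure D3:**
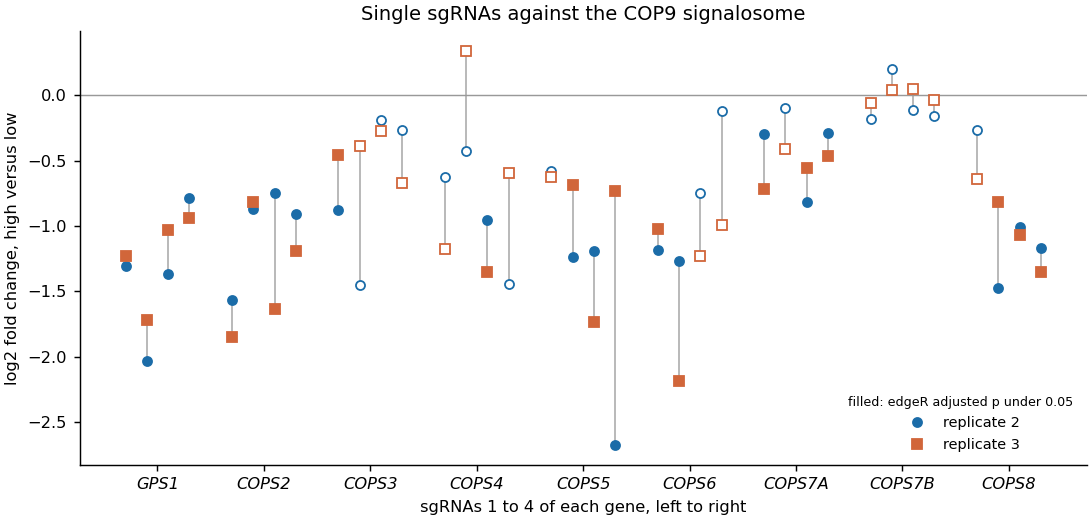
Log2 fold change in high versus low of each of the 36 sgRNAs, 4 a gene, with 1 point for each screen joined by a line and filled points where the edgeR adjusted p is under 0.05. All points of 7 genes lie below 0, COPS4 has 1 point above it, and the COPS7B points scatter about 0.

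The comparisons with medium place the change between the gates. These comparisons share libraries with high versus low and with each other, so their values are given side by side and not as separate evidence. For scale, PRKACA was at 1.48 in low versus medium (limma adjusted p = 0.000443) and at -0.12 in high versus medium (limma adjusted p = 0.752). In low versus medium 7 of the 9 genes were higher and 0 lower, with 1.18% of all genes called higher. GPS1 rose by 1.42 (1.45 and 1.40 in replicates 2 and 3, limma adjusted p = 0.000475) and COPS5 by 1.33 (1.46 and 1.19, limma adjusted p = 0.000808), the ranks of 23 and 31 from the highest of all genes. COPS4 rose by 1.18 (1.07 and 1.29, limma adjusted p = 0.00104), COPS2 by 1.14 (1.11 and 1.17, limma adjusted p = 0.00101) and COPS3 by 0.96 (0.95 and 0.98, limma adjusted p = 0.00198). The COPS4 and COPS3 values each leaned on a shallow sgRNA 4, without which they were 0.86 and 0.69.

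COPS8 rose by 0.87 (0.85 and 0.89, limma adjusted p = 0.00313) and COPS6 also by 0.87 (0.73 and 1.00, limma adjusted p = 0.00468). COPS7A was above 0 in both screens at 0.34 (0.31 and 0.37) without passing (limma adjusted p = 0.193), and COPS7B was at 0.01 (95% interval -0.23 to 0.24). Of the 36 sgRNAs 16 were called higher and 0 lower by edgeR, against 0.639% and 0.766% of all sgRNAs against genes. The low libraries carried this comparison: without the low library of replicate 2, 1 gene (GPS1) kept its call, and without that of replicate 3, 2 genes (GPS1 and COPS5) did. The genes that lost it had values between 0.67 and 1.24 there. The sgRNA count was 8 without the low or the medium library of replicate 2 and 7 without the low library of replicate 3.

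In high versus medium no gene of the complex was called, where 1.7% of all genes were called higher and 0.0966% lower. By limma 2 of 9 genes had an unadjusted p under 0.05, as did 1866 of all 18638 genes. Neither edgeR nor DESeq2 called any of the 36 sgRNAs. Of these, 3 had an unadjusted edgeR p under 0.05, as did 6690 of all 74739 sgRNAs tested. COPS4 was at 0.40 (0.21 and 0.59, 95% interval 0.09 to 0.71, limma adjusted p = 0.351) and COPS3 at 0.39 (0.25 and 0.53, 95% interval 0.12 to 0.67, limma adjusted p = 0.303). Centred on the sgRNAs without a target, which averaged -0.09 here, these 2 genes were called higher (COPS4 0.49, limma adjusted p = 0.0256, and COPS3 0.49, limma adjusted p = 0.0230). Each value leaned on a single shallow sgRNA, since COPS3 stood at 0.09 without its sgRNA 4 (54.7 and 25.6 scaled reads in medium, 113 and 79.4 in high) and COPS4 at 0.16 without its sgRNA 4.

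COPS5 was at 0.15 (95% interval -0.11 to 0.40) and GPS1 at 0.12 (-0.12 to 0.36) in high versus medium. COPS2 was at -0.06 (-0.34 to 0.22), COPS8 at -0.11 (-0.34 to 0.13) and COPS6 at -0.23 (-0.50 to 0.05). COPS7A was at -0.12 (-0.36 to 0.13) and COPS7B at -0.03 (-0.26 to 0.21). The sum of the low and high changes from medium, which is 0 when a knockout moves as far down on one side as up on the other, was 1.58 for COPS4, 1.54 for GPS1, 1.47 for COPS5, 1.36 for COPS3, 1.08 for COPS2, 0.76 for COPS8, 0.64 for COPS6, 0.23 for COPS7A and -0.02 for COPS7B. None of the 9 genes passed in this sum (smallest limma adjusted p = 0.0960, for GPS1), in which 7 genes of all tested passed (0.0376%). An unadjusted limma p under 0.05 was found for 7 of the 9, beside 1279 of all 18638 genes. Without its sgRNA 4, which had 3 raw reads in the medium library of replicate 3, COPS4 was at 1.02, and COPS3 without its sgRNA 4 was at 0.78. COPS6 ran from 0.14 to 1.13 with 1 sgRNA left out. The count of members that passed moved between 0 and 6 with the scaling, the pseudocount and the summary over sgRNAs, as set out with the other alternatives.

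**Figure D4:**
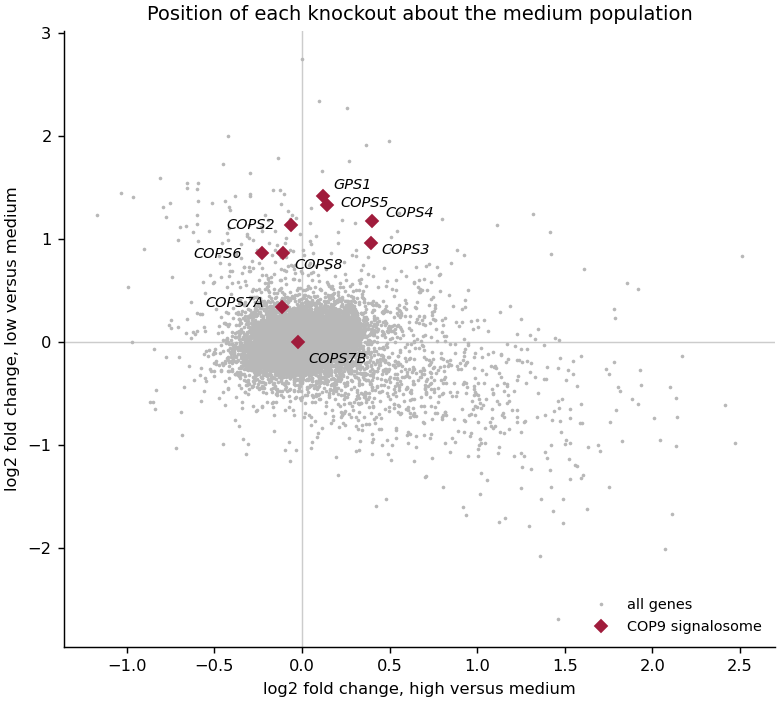
Log2 fold change in low versus medium (vertical) against high versus medium (horizontal) for all 18638 genes (grey) and the 9 COP9 signalosome genes (red). The 7 subunits called in low versus medium lie at 0.87 to 1.42 on the vertical axis and at -0.23 to 0.40 on the horizontal one, and COPS7B lies at the centre of the grey cloud.

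The shares of the sorted cells give the same data in plainer units. Weighting each library by the nominal size of its gate, 45.6% and 42.8% of the cells with GPS1 sgRNAs were in the low gate in replicates 2 and 3, 35.1% and 37.9% in medium and 19.3% and 19.4% in high. For COPS5 45.8% and 41.5% were in low and 20.1% and 22.02% in high, and for COPS2 40.2% and 44.1% were in low and 21.1% and 17.3% in high. The shares of COPS7B were 24.6% and 24.8% in low, 51.3% and 50.3% in medium and 24.1% and 24.98% in high, beside an all-gene median of 24.98% in low in replicate 2. Over the 9 genes the median share in the low gate was 37.8% in replicate 2 and 40.8% in replicate 3.

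The day 6 pool was rebuilt by adding the gates at their nominal sizes and compared with T0, which tells how far cells with each sgRNA were lost while the pool grew. In this comparison 7 of the 9 genes were lower and 0 higher, where 8.35% of all genes were lower and 2.54% higher. COPS5 fell by 1.58 on the log2 scale (-1.52 and -1.64 in replicates 2 and 3, limma adjusted p = 4.95e-13), to 34.7% and 31.1% of its T0 reads. COPS4 fell by 1.36 (-0.98 and -1.74, limma adjusted p = 1.49e-09) and COPS3 by 1.20 (-0.88 and -1.52, limma adjusted p = 4.59e-09). COPS6 fell by 0.93 (-0.71 and -1.15, limma adjusted p = 1.03e-07), COPS2 by 0.80 (-0.77 and -0.83, limma adjusted p = 2.59e-07) and GPS1 by 0.73 (-0.59 and -0.87, limma adjusted p = 2.46e-06).

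COPS8 fell least among the called genes, by 0.42 (-0.53 and -0.30, limma adjusted p = 0.00356). COPS7A was at 0.12 (95% interval -0.07 to 0.32) and COPS7B at 0.04 (-0.16 to 0.24). The sgRNAs without a target averaged 0.24 in this comparison, and relative to them both paralogues were below 0 (-0.11 and -0.20). COPS5 and COPS8 thus stood at opposite ends of the called genes for loss from the pool, at -1.58 and -0.42, and their high versus low values were -1.18 and -0.97. COPS7A and COPS7B, not called lower than T0, were at -0.46 and -0.03 in high versus low. Over the 36 sgRNAs the 2 comparisons had a Pearson correlation of 0.428 in replicate 2 and 0.207 in replicate 3. The loss from the pool and the shift between gates were computed partly from the same libraries, and the part of one in the other was not tested.

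Each gene has 6 values, its log2 level in high, medium and low against T0 in each screen, and the root mean square difference between such profiles was used to find the genes most like the complex. Against the median profile of the 9 members, COPS2 was at rank 1 (0.09), GPS1 at rank 3 (0.16) and COPS6 at rank 10 (0.25), which is partly by construction because they enter the median. The other members lay farther away, COPS3 at rank 78 (0.48), COPS8 at 99 (0.51), COPS4 at 285 (0.66) and COPS5 at 629 (0.77). COPS7A was at rank 8230 (1.06) and COPS7B at 9247 (1.08). The 5 nearest genes outside the complex were RSL1D1 (0.15), LAS1L (0.17), URB1 (0.23), MAK16 (0.23) and SEC61G (0.23). RSL1D1 encodes a nucleolar protein, LAS1L a subunit of an endonuclease that processes ribosomal RNA, and SEC61G a subunit of the translocon of the endoplasmic reticulum. In high versus low they were at -1.15 (RSL1D1), -1.27 (LAS1L), -1.31 (URB1), -1.35 (MAK16) and -1.25 (SEC61G).

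Within the complex the closest pair of profiles was GPS1 and COPS2 (0.18). Among the 18637 other genes COPS2 was at rank 2 from GPS1, and COPS3 at rank 1 from COPS4 (0.26). The nearest member to COPS6 was COPS2 at rank 10 (0.27), and the nearest to COPS5 was COPS4 at rank 30 (0.49). COPS8 lay apart, with COPS2 as its nearest member at rank 486 (0.46) and 0 members among its nearest 100 genes. COPS7A and COPS7B were each other's nearest member (0.24), at ranks 6301 and 12285. The values of COPS7B lay between -0.08 and 0.14, in the dense centre of the screen. COPS7A was above 0 in low against T0 (0.38 and 0.40 in replicates 2 and 3).

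The partners and substrates of the signalosome were looked at in the same comparison. The small subunit COPS9, a later addition to the complex, was at -0.25 in high versus low (-0.50 to 0.00, limma adjusted p = 0.289), with 1222 and 1362 scaled reads in low, 1118 and 1157 in medium, and 1198 and 971 in high. Of 12 genes for NEDD8 conjugation and removal 1 was higher and 0 lower, where 5.25% of all genes were called higher. The number called higher was 0 with either fit on library values and with any 1 low or high library left out, 2 with sgRNAs of at least 50 mean reads and 4 with the median over sgRNAs, which also called 1 lower. The 1 called was DCUN1D5, a co-factor of cullin neddylation, at 0.46 (0.41 and 0.50, limma adjusted p = 0.0217). DCUN1D5 was not called with the replicate block on library values (limma adjusted p = 0.0602) or with any 1 low or high library left out (limma adjusted p from 0.148 to 0.404). The NEDD8-conjugating enzyme UBE2M was at -0.36 in high versus low (limma adjusted p = 0.143). In low versus medium UBE2M was called higher at 0.53 (0.43 and 0.62, limma adjusted p = 0.0418). It was the only 1 of the 12 genes, with 0 called lower, where 1.18% of all genes were called higher.

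Of 10 cullins and CAND exchange factors 1 was higher and 3 lower, where 5.25% of all genes were called higher and 2.73% lower. CUL1, the scaffold of the SCF ligases, had the opposite sign to the signalosome at 2.77 (2.52 and 3.01, limma adjusted p = 1.46e-07). CUL3 was at -0.63 (limma adjusted p = 0.00550), CUL2 at -0.57 (limma adjusted p = 0.0106) and CUL4A at -0.40 (limma adjusted p = 0.0432). CAND1 was at 0.08 (-0.16 to 0.32). The cullins thus lay on both sides of 0, and when values were centred on sgRNAs that lack a target CUL2 and CUL4A were not called (limma adjusted p = 0.0616 and 0.147). CUL4A was also not called with the replicate block (limma adjusted p = 0.0677). CUL3 was not called without the low or the high library of replicate 2 (-0.48 and -0.50), nor was CUL2 without the low or the high library of replicate 3 (-0.40 and -0.46). With any 1 low or high library left out, 1 gene of this list was called lower.

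Of 22 adaptors and substrate receptors of these ligases 7 were higher and 2 lower, beside 5.25% and 2.73% of all genes. SKP1, which links F-box proteins to CUL1, was at 1.18 (limma adjusted p = 2.73e-05) and the F-box protein FBXW7 at 1.16 (limma adjusted p = 0.000166). DTL, a receptor of CUL4 ligases, was at 0.83 (limma adjusted p = 0.00246) and the CUL4 adaptor DDB1 at 0.63 (limma adjusted p = 0.00260). DTL had few reads, 53.4 and 81.1 scaled reads in low against 717 and 632 at T0. The CUL4 receptor DCAF1 was lower at -1.86 (limma adjusted p = 4.83e-05), as was ELOB (elongin B), the adaptor of CUL2 and CUL5, at -1.06 (limma adjusted p = 4.15e-05). Genes of CUL4 ligases thus lay on both sides of 0. DTL was not called with the replicate block (limma adjusted p = 0.0669), and DDB1 was not called without either low library (limma adjusted p = 0.0969 and 0.0702). Without the low library of replicate 2 the adaptors and receptors called higher numbered 1, and without any 1 of the other low and high libraries 3.

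The 2 other complexes with PCI and MPN subunits had medians above 0, with all their listed genes counted, whatever their domain. In high versus low 5.25% of all genes were called higher and 2.73% lower. Of 9 proteasome lid genes 3 were higher and 0 lower, with a median of 0.17. PSMD7, the lid's counterpart of COPS6, was at 1.17 (0.76 and 1.59, limma adjusted p = 0.000517), and PSMD6, a PCI subunit, was at 0.40 (limma adjusted p = 0.0484). PSMD7 had few reads, 63.0 and 44.9 scaled reads in low against 1542 and 1391 at T0. It was at 0.60 without the high library of replicate 3. PSMD14, the lid's deubiquitinase and counterpart of COPS5, was at 0.59 (0.95 and 0.22, limma adjusted p = 0.0359), and it was at -0.05 without the high library of replicate 2. With the replicate block on library values neither PSMD14 nor PSMD6 was called (limma adjusted p = 0.460 and 0.124), which left 1 lid gene, and PSMD6 was at 0.18 with sgRNAs of at least 50 mean reads. Without either low library 0 lid genes were called. Of 13 eIF3 genes 8 were higher and 0 lower, with a median of 0.46, and 3 were higher without the low library of replicate 2.

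The largest of these eIF3 changes were EIF3D at 1.16 (limma adjusted p = 3.09e-05), EIF3F at 1.12 (limma adjusted p = 0.000149) and EIF3I at 0.89 (limma adjusted p = 0.000160). EIF3E was at 0.68 (limma adjusted p = 0.00135), EIF3M at 0.65 (limma adjusted p = 0.00302) and EIF3H at 0.64 (limma adjusted p = 0.00220). From T0 to the day 6 pool 8 of 9 lid genes, 9 of 13 eIF3 genes and 7 of 9 signalosome genes were lower, with medians of -1.50, -1.03 and -0.80. Of all genes 8.35% were lower. Genes lower than at T0 were thus found in all 3 complexes, and their high versus low medians were 0.17, 0.46 and -0.97. Without either low library, the eIF3 count in high versus low was 3 (replicate 2) or 4 (replicate 3) and the lid count was 0.

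**Figure D5:**
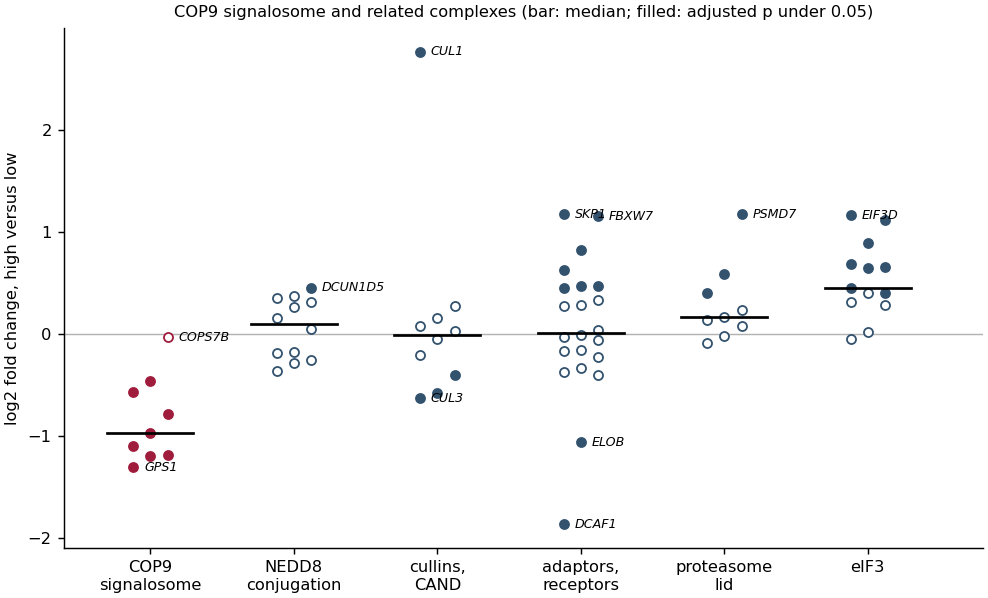
Log2 fold change in high versus low of the COP9 signalosome genes (red) and of the genes of related lists (blue), 1 point a gene, filled where the limma adjusted p is under 0.05, with a bar at each list's median. The signalosome median of -0.97 lies below 0, those of the proteasome lid (0.17) and eIF3 (0.46) lie above it, and CUL1 lies highest at 2.77.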

How the data were processed

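sgRNA reads from genomic DNA were counted by the authors with MAGeCK (0.5.9.4 in the study's methods), and the deposited table holds raw counts per sgRNA and sequencing lane. The 4 lanes of each library were summed, and 4 columns that match no sample were left out. The lane 4 description of the medium samples repeats that of the high samples, and columns were matched by title. Each library's counts were brought to the mean of the 8 totals, 1 was added and log2 was taken. For each gene the within-screen difference was averaged over sgRNAs and tested over the 2 screens with limma 3.58.1 (R 4.3.3), so that each screen is a block. Benjamini-Hochberg adjustment was over 18659 entries. The study also used limma and this adjustment. It then removed core-essential genes of RKO cells from its hits, which was not done here. Fold changes are on this log2(value + 1) scale, in which the added 1 draws the ratios of low sgRNAs toward 0. They can still exceed those of edgeR: COPS4 sgRNA 4 was at 2.14 in low versus medium and at 1.66 by edgeR. For single sgRNAs, edgeR 4.0.16 was run on raw counts (quasi-likelihood test, screen as a block), with DESeq2 1.42.0 as an alternative. Intervals are 95%. Scripts were tested on simulated data.

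The members and the related lists were chosen with earlier results of these data known. All members were named, up to 6 called genes of each related list by the size of the high versus low change (and, outside this rule and after their values were seen, PRKACA, COPS9, CAND1 and UBE2M), and the 5 nearest profiles outside the complex. No row was found for 2 listed symbols (NEDD8, ELOC), which are not analysed here. The 2 screens were independent, and deviations of same-numbered libraries correlated at 0.161 (high and medium), 0.123 (high and low) and 0.158 (medium and low). With 2 screens, the p-values rest on spread shared across genes. Alternatives were other scalings (TMM, DESeq2 size factors, centring on sgRNAs without a target), a pseudocount of 5, a minimum mean of 50 reads, the median over sgRNAs, the replicate block, other pool weights and leaving out each library, sgRNA or, after seeing the data, lane 4.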

Additional observations from a re-analysis of the deposited data

How the results depend on the processing

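The number of members called lower in high versus low was 8 under the scalings, pseudocount and summaries tried, apart from 7 with centring on sgRNAs without a target, and 5 to 8 with 1 library left out (5 without the low library of either screen). In low versus medium the members called higher ranged from 1 to 7 with 1 library left out, 1 without the low library of replicate 2 and 2 without that of replicate 3. In high versus medium 2 members were called higher with that centring. In the sum of low and high changes from medium, the members called were 5 with that centring, 5 with a pseudocount of 5, 4 with sgRNAs of at least 50 mean reads, 6 with the median over sgRNAs and 0 to 4 with 1 library left out. For single sgRNAs leaving out 1 library gave 10 to 22 called lower in high versus low (10 and 12 without the low library of replicates 2 and 3, 10 and 13 without the high one) and 7 to 17 called higher in low versus medium (8 and 7 without the low library, 8 without the medium library of replicate 2), and DESeq2 gave 15 and 13.

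A fit on library values with the replicate block, which pairs the libraries of a screen, called 8 members lower in high versus low and 7 higher in low versus medium, and with no replicate block 6 and 5. Without the block the calls lost were COPS3 and COPS4 (limma adjusted p = 0.184 and 0.0887) in high versus low and COPS3 and COPS6 (0.0620 and 0.0542) in low versus medium. COPS7A in high versus low also lost its call without any 1 of the low and high libraries, and COPS8 from T0 to the day 6 pool without the T0 library of replicate 2 (limma adjusted p = 0.126). The cause was not tested.

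Values close to 0 changed sign, among the members none of them called. With centring, COPS7B moved to 0.080 for high versus low, to -0.013 for low versus medium and to 0.067 for high versus medium, to 0.053 for the sum about medium and to -0.20 for pool versus T0, COPS7A to -0.11 (pool versus T0) and COPS2 to 0.032 (high versus medium). Without lane 4, COPS7B was at 0.012 in high versus low and 0.058 in high versus medium, and with the median over sgRNAs at -0.029 in low versus medium. With 1 library left out, COPS7B ranged from -0.023 to 0.035 in low versus medium, from -0.048 to 0.010 in the sum about medium and from -0.052 to 0.13 for pool versus T0, COPS2 from -0.22 to 0.099 and COPS5 from -0.024 to 0.32 in high versus medium, and PSMD14, which was called, from -0.052 to 1.22 in high versus low. The smallest count among the sgRNAs of the members was 3 raw reads, for COPS4 sgRNA 4.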
